A study of Homo sapiens with 6 samples.

Results

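The core autophagy machinery comprised 44 genes, listed by name for their roles in the pathway at a time when earlier results of these data were known, and each was matched to 1 of the 60668 genes in the deposited table. They were grouped by role into the ULK1 kinase complex (5 genes), the class III phosphatidylinositol 3-kinase (PI3-kinase) complex (6), effectors of its lipid product together with lipid transfer proteins (9), conjugation enzymes and proteases (10), the ATG8 family (5), cargo receptors (5), receptors for the endoplasmic reticulum (ER-phagy receptors, 3) and 1 fusion protein, STX17. RNA was sequenced from MiaPaCa-2, an established human pancreatic cancer cell line, in 3 libraries of cells kept at 2.5 mM glucose for 48 h (low glucose) and 3 of cells kept at 25 mM (control). No gene was edited and no drug was added in either group, and all 6 libraries came from the same cell line. Control libraries held 9741183 to 10190154 reads on genes and low-glucose libraries 10595408 to 13733477. Control libraries are named by depth (shallowest, middle and deepest), and low-glucose libraries as replicate 1, replicate 2 and the unnumbered library, because the sources used here give no replicate number for the other columns. Values are given in that order throughout.

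Autophagy encloses cytoplasm in a double membrane, the autophagosome, and delivers it to the lysosome for breakdown, and pancreatic cancer cells are known to rely on it for nutrients. The ULK1 kinase complex starts the process, the PI3-kinase complex makes phosphatidylinositol 3-phosphate (PI3P) on the forming membrane, and PI3P-binding WIPI proteins bring in lipid transfer proteins and the conjugation machinery. That machinery attaches ATG8 proteins to the membrane, where they bind cargo receptors that are themselves degraded. Low nutrient supply is sensed in part through mTORC1 and AMPK, which act on the ULK1 complex as proteins, so transcript levels report only the supply of the machinery and not autophagic flux.

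The cell line's markers were checked first. Keratins KRT8 and KRT18 and the mesenchymal filament VIM were abundant in every library, with VIM at 57844 or more, whereas PTPRC, CD3E, DCN, INS, GCG, CPA1 and PRSS1 had no read in any library. KRT8, KRT18 and KRT19 were lower in low glucose (log2 fold change -1.01, -0.74 and -0.83) and VIM was higher (0.42). The epithelial markers EPCAM and CDH1 were near 0, at 2.27 or below, and KRT7 and the collagen gene COL1A1 were low, at 13.5 or below. CD68 was at 16.8 or below. The endothelial marker PECAM1 was at 1.07 to 3.34 in control libraries and had no read in low glucose. The fibroblast-associated collagen gene COL1A2 and the endothelial cadherin CDH5 were present in all libraries, and both were lower in low glucose (CDH5 from 155 to 184 down to 9.62 to 12.1). In RNA of whole cultures, fewer cells that carry a transcript and less of it per cell cannot be told apart. Low-glucose libraries resembled each other more closely than control libraries did. The chi-square statistic per gene between libraries was 1.90 to 2.89 within low glucose and 4.63 to 18.9 within control, and the largest value lay between the middle and the deepest control library.

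Across all genes, 6528 of 21101 tested (30.9%) passed a limma adjusted p of 0.05, of which 3111 (14.7%) were higher and 3417 (16.2%) lower in low glucose. Of the 44 members, all of which were tested, 21 passed (47.7%), 15 of them higher (34.1%) and 6 lower (13.6%). Values did not overlap between groups for 28 members (63.6%), compared with 43.9% of all genes tested. The members were better expressed than most genes, which bears on how many could be called. Among the 12779 genes with a mean at least that of the lowest member (32.5), 44.1% passed, 18.6% higher and 25.5% lower, so the members' total lay near this share, with more of it in the higher direction. The share without overlap was not computed for these 12779 genes, here or for the groups below. The median log2 fold change was 0.10 over the members and 0.049 over all genes tested. Without the variance trend, 8 members lost the call (ULK1, ATG13, ATG10, VMP1, AMBRA1, WDR45B, ATG2B and ATG9A), at adjusted p of 0.0508 to 0.223. Without the middle control library, 18 members were higher and 7 lower, and ULK2, PIK3C3, GABARAP (higher) and ATG16L1 (lower) were the additions. Of the 6 lower calls, only that of PIK3R4 passed in every fit without 1 library. Lower calls numbered 3 without the shallowest control library, 2 without low glucose replicate 1, and 3 each without low glucose replicate 2 or the unnumbered library.

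**Figure D1:**
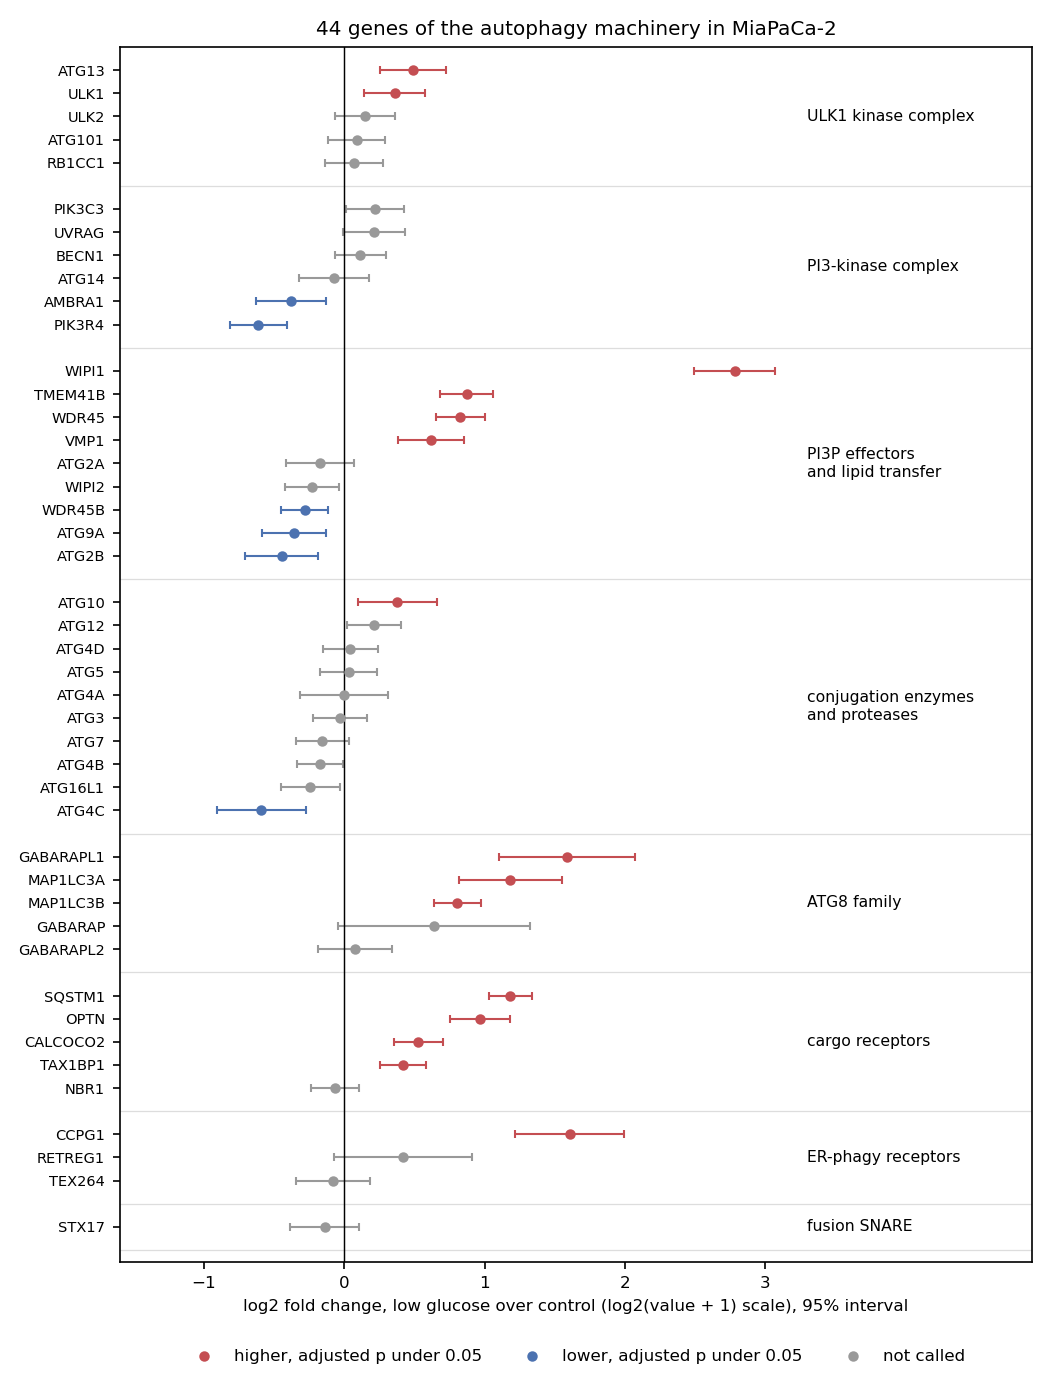
Log2 fold change of each of the 44 members, low glucose over control, on the log2(value + 1) scale (x axis), with bars for the 95% confidence interval from limma (n = 3 libraries per group). Members are ordered by size within each group. WIPI1 lies furthest to the right at 2.78, the ATG8 and receptor groups hold only rises and uncalled members, and the 6 lower members belong to the PI3-kinase, PI3P effector and conjugation groups.

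WIPI1, a PI3P-binding propeller protein that is recruited early to forming autophagosomes, had the largest change of the machinery. Its values, in read counts scaled by the size factor of the library, were 111, 85.8 and 118 in control and 824, 726 and 624 in low glucose. All low-glucose libraries lay far above all control libraries, and no library decided the difference. The means were 105 ± 16.8 and 725 ± 100 (SD, n = 3 each), a 6.92-fold rise, with a log2 fold change of 2.78 ± 0.13 (SE) and a limma adjusted p of 9.93e-09. Of all 21101 genes tested, 51 had a larger log2 fold change. With any 1 library left out, the log2 fold change of WIPI1 stayed between 2.65 and 2.89.

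WIPI1 lies on the minus strand of chromosome 17 (hg38, 68420948 to 68457513). Because its rise leads the results, the sequence just before its first exon is shown, taken from the RefSeq promoter table (GRCh38.p14) and ended where the Gencode gene begins. The stretch is chr17:68457514-68457746, 233 bases on the minus strand, with matches to the GC box (GGGCGG, either strand) in capitals.
WIPI1: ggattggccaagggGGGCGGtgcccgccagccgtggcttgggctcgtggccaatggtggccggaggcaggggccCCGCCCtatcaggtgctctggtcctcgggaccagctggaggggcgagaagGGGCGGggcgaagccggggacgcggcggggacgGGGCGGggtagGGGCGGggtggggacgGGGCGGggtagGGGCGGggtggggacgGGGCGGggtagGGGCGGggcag
The stretch held 9 GC boxes, most of them in a short repeat near the gene, and 79.0% of its bases were G or C. Of all 35116 RefSeq windows cut to the same length, 0.205% held as many GC boxes, and the median window held none. No binding was measured, so the matches are a description of the letters.

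ARSG, which encodes an arylsulfatase, lies on the other strand and shares 829 exon bases with WIPI1. Its values were 59.4, 61.3 and 60.99 in control and 354, 272 and 264 in low glucose, so ARSG rose too, with a log2 fold change of 2.26 (limma adjusted p 7.01e-08). ARSG held 42.8% as many reads as WIPI1 over all libraries, and its ratio to WIPI1 lay between 0.518 and 0.714 in control libraries and between 0.374 and 0.429 in low-glucose libraries. The library kit kept the strand, but the sources used here do not state whether the counting did, so reads of the shared bases cannot be told apart. WIPI1 had more reads than ARSG in every library.

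Within the WIPI family, which also holds WIPI2, WDR45 (WIPI4) and WDR45B (WIPI3), the members moved in different directions. WDR45, which binds the lipid transfer protein ATG2, had values of 472, 460 and 490 in control and 878, 801 and 845 in low glucose. The groups were well apart, and the log2 fold change was 0.83 ± 0.08 (SE, limma adjusted p 4.44e-06). WDR45B fell from 1572 ± 125 to 1290 ± 12.2 (SD, n = 3 each), a log2 fold change of -0.28 (limma adjusted p 0.0141). This call was lost without the shallowest control library (adjusted p 0.0785), without each low-glucose library in turn (0.0565 to 0.0706), and under library size scaling, quantile normalization (0.439) and a variance model without trend. FOXK2, on the other strand of WDR45B with 53 shared exon bases and 125% as many reads, fell as well, by 0.31 on the log2 scale (limma adjusted p 0.0162), and lost the call in 4 of the 6 fits without 1 library, under quantile normalization (0.399) and without the variance trend (0.126).

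WIPI2, which brings ATG16L1 to the membrane, was 1304, 1618 and 1322 in control and 1216, 1224 and 1156 in low glucose. Its values did not overlap between groups, yet the difference did not pass the test (log2 fold change -0.23, 95% interval -0.42 to -0.04, limma adjusted p 0.0628). Without the deepest control library it passed as lower (adjusted p 0.0245). Per transcript length, in TPM (transcript abundance scaled to a fixed total per library), WDR45B was the highest of the family in every library.

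The make-up of the family shifted accordingly. WIPI1 made up 4.38%, 3.57% and 4.62% of the summed TPM of the 4 genes in control and 26.2%, 24.1% and 21.3% in low glucose. The share of WDR45 was 13.8 ± 0.237% in control and 20.2% on average in low glucose, whereas that of WDR45B was 60.5 ± 3.0% and 41.0% and that of WIPI2 21.6 ± 3.42% and 15.0%. The summed level was 221 ± 8.68 TPM in control and 257 ± 9.74 TPM in low glucose (SD, n = 3 each), so the summed level differed far less between groups than the share of WIPI1 did. For a single value such as a share, an exact permutation test of 3 libraries against 3 cannot give a p below 0.1.

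**Figure D2:**
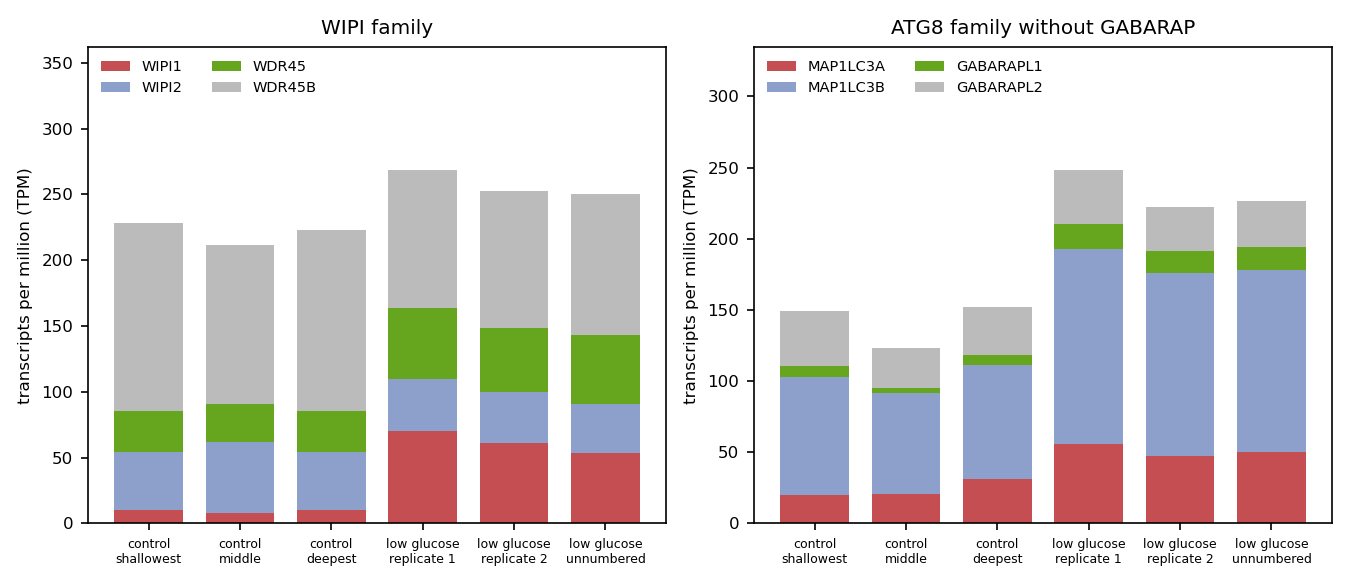
Stacked bars give the level in TPM (y axis, from 0) of each member of the WIPI family (left) and of the ATG8 family without GABARAP (right) in each of the 6 libraries (x axis). WIPI1 takes 3.57 to 4.62% of the WIPI bar in control and 21.3 to 26.2% in low glucose, whereas the ATG8 bar grows from 123 to 152 TPM in control to 222 to 248 TPM in low glucose with MAP1LC3B as its largest portion throughout.

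Of the 9 genes for PI3P effectors and lipid transfer, 4 rose and 3 fell, where 14.7% of all genes rose and 16.2% fell, with a median log2 fold change of -0.17. Values did not overlap between groups for 8 of the 9, against 43.9% of all genes. Besides WIPI1 and WDR45, the rises were TMEM41B and VMP1, a pair of ER membrane proteins that scramble lipids between leaflets. TMEM41B had values of 336, 303 and 333 in control and 611, 586 and 584 in low glucose. The control values lay close together and far below the low-glucose values (log2 fold change 0.87 ± 0.09 SE, limma adjusted p 5.61e-06). VMP1 was 1589, 1229 and 1801 in control and 2366, 2301 and 2322 in low glucose, with the spread lying mainly among control libraries. Its log2 fold change was 0.61 ± 0.11 (SE, limma adjusted p 0.000690), and without the variance trend it narrowly missed the threshold (0.0508). PTRH2, on the other strand with 129 shared exon bases, moved the other way, from 1234 to 1009 on average.

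The transcripts of the proteins that carry lipid into the growing membrane did not rise. ATG2B, one of the bridge-like lipid transfer proteins, was 353, 378 and 300 in control and 281, 217 and 258 in low glucose (log2 fold change -0.45, limma adjusted p 0.0120). ATG9A, the scramblase of the vesicles that seed the membrane, was 374, 449 and 367 in control and 285, 333 and 307 in low glucose (log2 fold change -0.36, limma adjusted p 0.0191). Both genes were lower in every low-glucose library than in any control library. The call of ATG2B was lost without the shallowest control library (adjusted p 0.0578) or low glucose replicate 2 (0.0856), and that of ATG9A without low glucose replicate 1 (0.108) or the unnumbered library (0.0746). ATG2B also lost it in TPM (0.0731), ATG9A under library size scaling (0.0524), and both without the variance trend (0.0915 and 0.0984). ATG9A shares 1833 exon bases, 38.8% of its own, with ENSG00000284820 on the same strand. That gene held 1.04% as many reads as ATG9A, and how shared reads were assigned is not described, so the level of ATG9A is uncertain. For ATG2A, the paralog of ATG2B, the groups overlapped and the log2 fold change was -0.17 (95% interval -0.41 to 0.07).

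The ATG8 family, the ubiquitin-like proteins that are joined to the membrane lipid, had 3 rises among 5 genes, against 14.7% of all genes, and a median log2 fold change of 0.81. GABARAPL1 was 99.8, 46.8 and 98.4 in control and 252, 223 and 229 in low glucose. The middle control library was the lowest, and the rise also passed in the fit without it. Over all libraries the log2 fold change was 1.59 ± 0.23 (SE, limma adjusted p 0.000106), and in the fits without 1 library it ranged from 1.23 to 1.77. MAP1LC3A was 75.1, 78.0 and 121 in control and 222, 192 and 199 in low glucose, with the deepest control library highest among control but below every low-glucose library (log2 fold change 1.18 ± 0.17 SE, limma adjusted p 0.000124). MAP1LC3B, the LC3 protein most used as an autophagosome marker, was 1362, 1205 and 1350 in control and 2374, 2266 and 2205 in low glucose. This was a 1.75-fold rise with a narrow spread in both groups (log2 fold change 0.81 ± 0.08 SE, limma adjusted p 3.46e-06).

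GABARAPL2 overlapped between groups (log2 fold change 0.076, 95% interval -0.18 to 0.34). GABARAP had only 12 to 51 reads per library, with values of 13.5, 35.7 and 29.96 in control and 36.6, 40.5 and 38.6 in low glucose, and a log2 fold change of 0.64 whose 95% interval reached from -0.05 to 1.32. All 691 bases that it shares on its own strand belong to a read-through gene, ENSG00000262526, that had no read. On the other strand, ENSG00000279641 shares 250 exon bases with GABARAP and held 753% as many reads. The study's software list holds RSEM, which divides shared reads by estimate, but how reads were assigned to genes for this table is not described, so the level of GABARAP is uncertain and it was left out of the family sum. The other ATG8 genes summed to 141 ± 16.2 TPM in control and 232 TPM on average in low glucose. MAP1LC3B held 55.5 ± 2.91% of that sum in control and 56.4% in low glucose, while the share of GABARAPL2 was 23.5 ± 2.08% in control and 14.4% in low glucose.

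Of the 5 cargo receptors, which link ubiquitinated or damaged cargo to ATG8 proteins, 4 rose, against 14.7% of all genes, with 0.53 as the group's median log2 fold change. SQSTM1 (p62) was 4713, 4916 and 4776 in control and 11031, 10791 and 10883 in low glucose. The libraries of each group differed by far less than the groups did, and the rise was 2.27-fold (log2 fold change 1.18 ± 0.07 SE, limma adjusted p 5.60e-08). OPTN, an adaptor in the clearance of mitochondria and bacteria, was 569, 501 and 430 in control and 1015, 972 and 932 in low glucose. The rise was larger than the spread among control libraries, with a log2 fold change of 0.97 ± 0.10 (SE, limma adjusted p 6.65e-06).

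CALCOCO2 (NDP52) rose from 744 ± 43.6 to 1073 ± 51.9 (SD, n = 3 each), a log2 fold change of 0.53 (limma adjusted p 0.000197). TAX1BP1, its paralog, rose from 1444 ± 102 to 1929 ± 32.4, a log2 fold change of 0.42 (limma adjusted p 0.000820). NBR1, which shares its domain order with SQSTM1 and acts beside it, was 1186, 1277 and 1113 in control and 1133, 1094 and 1186 in low glucose. Its groups overlapped, and the 95% interval of its log2 fold change, -0.24 to 0.10, lay wholly below the intervals of the other 4 receptors. The receptors summed to 339 ± 14.7 TPM in control and 610 TPM on average in low glucose, and SQSTM1 took 56.8 ± 1.75% of the sum in control and 68.5% in low glucose.

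MRNIP, on the other strand of SQSTM1, shares 1582 exon bases with it. Its values rose from 2206, 2163 and 2360 in control to 5619, 5579 and 5523 in low glucose, at a ratio to SQSTM1 of 0.440 to 0.517 in every library. As for WIPI1 and ARSG, the reads of the shared bases cannot be told apart. SQSTM1 held more reads than MRNIP in all 6 libraries. MGAT4B, also on the other strand, shares 105 exon bases with SQSTM1 and held 47.1% as many reads. MGAT4B rose as well (log2 fold change 0.38, limma adjusted p 0.00126).

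**Figure D3:**
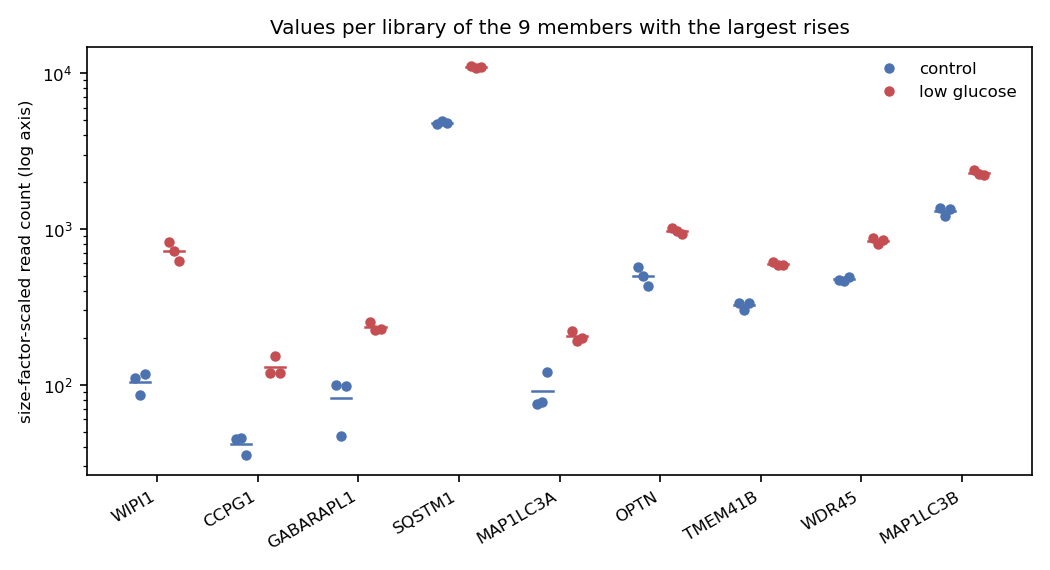
Size-factor-scaled read counts (y axis, log scale) in each library for the 9 members with the largest rises (x axis). Points are libraries and short lines are group means, with control in blue and low glucose in red. For every gene shown the 3 low-glucose values lie above the 3 control values, from WIPI1 (85.8 to 118 against 624 to 824) to MAP1LC3B (1205 to 1362 against 2205 to 2374).

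CCPG1, an ER-phagy receptor in the ER membrane, had the second largest rise of the machinery. Its values were 44.8, 45.7 and 35.3 in control and 118, 153 and 118 in low glucose, a 3.10-fold difference with no overlap (log2 fold change 1.61 ± 0.18 SE, limma adjusted p 1.46e-05). CCPG1 shares 3405 exon bases on its own strand with a read-through gene that had no read, and 443 with PIGB on the other strand. The shared bases on its own strand are 38.7% of its exon bases, so the level of CCPG1 is uncertain, as for GABARAP. PIGB lay at 55.7 to 70.6 in control libraries and at 77.0 to 87.9 in low-glucose libraries, and the difference did not pass the test (limma adjusted p 0.158). The other ER-phagy receptors were not called. RETREG1 (FAM134B) had 25 to 67 reads per library and a log2 fold change of 0.42 (95% interval -0.07 to 0.91). RETREG1-AS1, on its other strand, shares 561 exon bases with it and held 385% as many reads. TEX264 was 279 ± 35.1 in control and 264 ± 32.5 in low glucose (SD, n = 3 each). RAD54L2, on the same strand as TEX264, shares 184 exon bases with it and held 138% as many reads. RAD54L2 was called lower (log2 fold change -0.72, limma adjusted p 0.00230), though not without the variance trend (0.0719).

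Of the 11 initiation genes, those of both kinase complexes, 2 rose and 2 fell, and the log2 fold changes ranged from -0.61 to 0.49 with a median of 0.11. The share called, 36.4%, compares with 30.9% of all genes and 44.1% of genes with a mean at least that of the lowest member. In the ULK1 kinase complex, ATG13, the scaffold subunit that mTORC1 phosphorylates, was 615, 839 and 634 in control and 1035, 911 and 965 in low glucose. All low-glucose values lay above the highest control value (log2 fold change 0.49 ± 0.11 SE, limma adjusted p 0.00345), although the call was lost in TPM (0.0536) and without the variance trend (0.0773). ULK1, the kinase, rose from 419 ± 41.4 to 537 ± 52.2 (SD, n = 3 each), a log2 fold change of 0.36 (limma adjusted p 0.0153). Its call was lost without the shallowest control library (0.0795), without low glucose replicate 1 (0.107) and without replicate 2 (0.0602). It was also lost in TPM (0.0898) and without the variance trend (0.101). The other members of the complex, the kinase ULK2, the ATG13 partner ATG101 and the scaffold RB1CC1 (FIP200), overlapped between groups, with log2 fold changes of 0.15, 0.088 and 0.068.

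In the PI3-kinase complex, the clearest change was a fall of PIK3R4 (VPS15), the regulatory subunit that holds the kinase. Its values were 671, 726 and 631 in control and 399, 446 and 481 in low glucose. Every low-glucose library lay below every control library, and the log2 fold change was -0.61 ± 0.10 (SE, limma adjusted p 0.000216). AMBRA1, a scaffold that binds BECN1, was 544, 700 and 487 in control and 449, 437 and 427 in low glucose, with the control values spread widely (log2 fold change -0.38, limma adjusted p 0.0216). Its call was lost without the shallowest control library (0.0535) and without each low-glucose library in turn (0.0735 to 0.101). It was also lost under library size scaling (0.0519), in TPM (0.0596) and without the variance trend (0.141).

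PIK3C3 (VPS34), the catalytic subunit, and UVRAG, the subunit of the endosomal form of the complex, had log2 fold changes of 0.22 and 0.21, neither of which passed the test (limma adjusted p 0.103 and 0.138). Both passed as higher under library size scaling (0.0277 and 0.0426). The values of both did not overlap between groups. BECN1, the core subunit, was 708 ± 44 in control and 766 ± 47.5 in low glucose (SD, n = 3 each), and for ATG14, which directs the complex to the site of autophagosome formation, the means were 364 ± 63.0 and 342 ± 10.2. Both overlapped between groups. PSME3, on the other strand of BECN1 with 300 shared exon bases and 348% as many reads, fell from 3159.5 to 2096 on average while BECN1 did not.

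Of the 10 conjugation enzymes and proteases, 1 rose (ATG10) and 1 fell, with a median log2 fold change of -0.017, against 30.9% of all genes called. Without ATG10, left out after its values were seen, 1 of 9 was called and the median was -0.032. The E1-like enzyme ATG7, the E2-like enzyme ATG3 and the conjugate partners ATG5, ATG12 and ATG16L1 had log2 fold changes between -0.24 (ATG16L1, limma adjusted p 0.0793) and 0.21 (ATG12, 0.0862). ATG12 passed as higher under library size scaling (0.0239), quantile normalization (0.0222) and edgeR (0.0452), and ATG16L1 passed as lower without the middle control library (0.00761). The 95% intervals were -0.22 to 0.16 for ATG3 and -0.17 to 0.23 for ATG5.

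Of the ATG4 proteases, which trim new ATG8 proteins and release them from membranes, ATG4C fell. Its values were 156, 143 and 135 in control and 82.7, 94.8 and 111 in low glucose (log2 fold change -0.59 ± 0.15 SE, limma adjusted p 0.00715). All control values lay above all low-glucose values, although the call was narrowly lost without low glucose replicate 1 (0.0512). ATG4A, ATG4B and ATG4D were not called, with log2 fold changes of -0.0023, -0.17 and 0.042. The 4 proteases summed to 117 ± 2.04 TPM in control and 105 TPM on average in low glucose. KRI1, on the other strand of ATG4D, shares 334 exon bases with it and held 254% as many reads. KRI1 was called lower (log2 fold change -0.33, limma adjusted p 0.00485), a call lost under quantile normalization (0.119) and without the variance trend (0.0549). Reads of the bases that ATG4D and KRI1 share cannot be told apart.

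ATG10, the E2-like enzyme for ATG12, passed as higher (log2 fold change 0.38, limma adjusted p 0.0414), but its value is uncertain. It held 56574 reads over all libraries, and RPS23, a ribosomal protein gene on the other strand with 374 shared exon bases, held 56688. The values of ATG10 were 8106, 6407 and 9670 in control and 11202, 11161 and 8800 in low glucose, those of RPS23 8376, 6761 and 9976 against 10636, 10951 and 8852, and their ratio was 0.950 to 1.06 in every library. The groups overlapped for ATG10. Its call was lost without the shallowest control library (0.117), low glucose replicate 1 (0.204) or replicate 2 (0.193), in TPM (0.222), with a pseudocount of 0.1 (0.0621) and without the variance trend (0.223), and its log2 fold change lay between 0.22 and 0.52 with any 1 library left out. RPS23 itself did not pass the test (limma adjusted p 0.0917). STX17, the SNARE protein that fuses the finished autophagosome with the lysosome, was 287 ± 37.0 in control and 259 ± 15.9 in low glucose (SD, n = 3 each), and its groups overlapped.

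**Figure D4:**
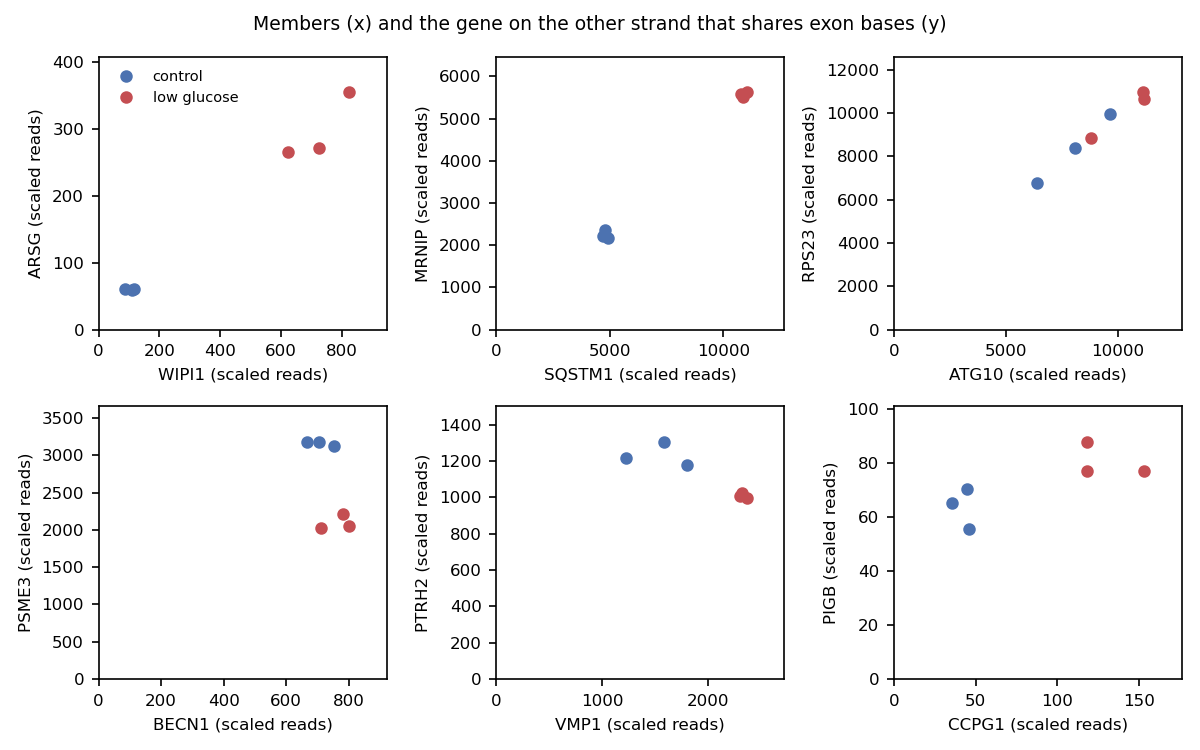
Values of 6 members (x axes, size-factor-scaled reads) against the gene on the other strand that shares exon bases with each (y axes, the same unit), with 1 point per library, control in blue and low glucose in red. ARSG with WIPI1, MRNIP with SQSTM1 and RPS23 with ATG10 move together, PSME3 and PTRH2 are lower in low glucose while BECN1 overlaps between groups and VMP1 rises, and PIGB changes less than CCPG1.

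Genes on the other strand with at least 5% as many reads were found for 22 of the 44 members. Of these 22, 9 rose (40.9%) and 1 fell (4.55%), with a median log2 fold change of 0.29. Of the 22 members with no such partner, 6 rose (27.3%) and 5 fell (22.7%), with a median of 0.01. Over all genes tested, 14.7% rose and 16.2% fell. For genes with a mean at least that of the lowest member, the shares were 18.6% and 25.5%. WIPI1, SQSTM1, OPTN, MAP1LC3B, VMP1 and CCPG1 are in the first set, and GABARAPL1, MAP1LC3A, WDR45, TMEM41B, CALCOCO2 and ULK1 are the 6 rises of the second. The part of shared bases in the results was not tested.

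The group comparison can be stated side by side. Among initiation genes 2 of 11 rose (18.2%), among PI3P effectors and lipid transfer proteins 4 of 9 (44.4%), among conjugation enzymes 1 of 10 (ATG10), among ATG8 genes 3 of 5 (60.0%) and among cargo and ER-phagy receptors 5 of 8 (62.5%), where the share over all genes was 14.7%. Falls were 2 of 11, 3 of 9, 1 of 10, 0 of 5 and 0 of 8, where the share over all genes was 16.2%. For genes with a mean at least that of the lowest member, the shares were 18.6% for rises and 25.5% for falls. Values did not overlap between groups for 6 of 11, 8 of 9, 4 of 10, 4 of 5 and 6 of 8, where the share over all genes was 43.9%. For the better expressed genes the share without overlap was not computed. No test between groups was made, and groups this small give coarse shares. Past a log2 fold change of at least 1, 5 members rose (WIPI1, CCPG1, GABARAPL1, MAP1LC3A and SQSTM1), and 5.18% of all genes tested did.

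RefSeq promoter windows, from 250 bases before to 50 after the start, were available for 38 of the 44 members. Both strands were searched for the letters of elements that stress and lysosomal regulators are known to bind. The C/EBP-ATF response element (TGATGNAA), bound by ATF4 and DDIT3, matched in WDR45 alone and in 3.62% of all windows, and its match overlapped one to the forkhead element (GTAAACA, 3.42% of windows), which also matched in CALCOCO2. The CLEAR element (TCACGTGA, 0.980% of windows), bound by TFEB and TFE3, matched in ATG3, and the cAMP response element (TGACGTCA, 1.85%) in GABARAPL1. The core of the antioxidant response element (TGACNNNGC, 13.3%) matched in ATG101, CALCOCO2, MAP1LC3B and RETREG1, of which CALCOCO2 and MAP1LC3B rose. The UPR element (TGACGTGG, 0.729%) and the ER stress response element (0.0769%) matched in no member. The GC box matched in 28 of the 38 members. Some members have more than 1 window, and counted by window it matched in 32 of their 48, against 45.0% of all windows. One match in each of the 4 called genes is shown because these genes rose, with the matched letters in capitals (GRCh38.p14). CALCOCO2 is shown at its forkhead match.
WDR45, chrX:49079876-49079903, minus strand: aagtagggccTGATGTAAacacccgagc
GABARAPL1, chr12:10212837-10212864, plus strand: gctcgcggggTGACGTCAcagcccgacg
MAP1LC3B, chr16:87392280-87392308, plus strand: gcgagtcaccTGACCAGGCtgcgggctga
CALCOCO2, chr17:48830799-48830825, plus strand: aaaaagaaaaGTAAACAgcttcttcca
WIPI1, SQSTM1, OPTN, TMEM41B and CCPG1 matched the GC box alone of these elements, and VMP1 matched none. A match is no site of binding, and the absence of one says only that these letters are not in this window.

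Beyond the core machinery, a list of 50 further autophagy genes was examined, of which 47 were tested and RUBCNL, MAP1LC3C and FUNDC1 were listed at 0. Of the 47, 14 rose (29.8%) and 2 fell (4.26%), with a median log2 fold change of 0.14, where 14.7% of all genes rose and 16.2% fell. The list was chosen with earlier results of these data known, and 6 of the 14 rises were its stress-linked regulators. The count therefore says nothing of autophagy genes as a group. Among initiation regulators, NRBF2, a subunit of the PI3-kinase complex, rose from 262 to 291 in control to 397 to 447 in low glucose (log2 fold change 0.62, limma adjusted p 0.000210), and the kinase ULK3 rose by 0.40 on the log2 scale. The call of ULK3 was lost without low glucose replicate 1 (0.0595) or the unnumbered library (0.0585), in TPM (0.0525) and without the variance trend (0.0632). Among 12 tethering and fusion genes, VPS11 of the HOPS tether rose by 0.41 and SNAP29, the SNARE partner of STX17, fell by 0.31, and the other 10 were not called. The share called was 16.7%, compared with 30.9% of all genes, and 12 genes give only a coarse share. SNAP29 lost the call in 4 of the 6 fits without 1 library.

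Among 13 other selective receptors, CALCOCO1, a paralog of CALCOCO2 that acts at the ER, rose from 156 to 212 in control to 322 to 358 in low glucose (log2 fold change 0.86, limma adjusted p 0.000118). BNIP3L (NIX), a mitophagy receptor, rose by 0.53, SEC62, an ER-phagy receptor, fell by 0.34, and the other 10 were not called. The share called was 23.1%, compared with 30.9% of all genes, and 13 genes give only a coarse share. SEC62 lost the call without low glucose replicate 1 (0.0556), under quantile normalization (0.194) and without the variance trend (0.0894). The hypoxia-linked receptor BNIP3 had 13.8 to 26.0 in all libraries, with overlap between groups.

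The transcription regulators of autophagy genes split into those called and those not. ATF4, the effector of the integrated stress response, was 2624, 1932 and 2743 in control and 5051, 5002 and 4784 in low glucose (log2 fold change 1.04, limma adjusted p 7.66e-06). DDIT3 (CHOP), which acts downstream of ATF4, was 197, 108 and 216 in control and 1330, 1110 and 1155 in low glucose (log2 fold change 2.84, limma adjusted p 1.45e-07). FOXO3 rose by 0.61 on the log2 scale, from 191 to 199 in control to 288 to 311 in low glucose. TFEB, TFE3 and MITF, the regulators of lysosomal genes, and FOXO1 and the repressor ZKSCAN3 were not called, and TFEB, MITF and FOXO1 were below 30 in every library. The 6 stress-linked regulators of autophagy on the list rose, where 14.7% of all genes did, and they had been listed with earlier results known, so the count says nothing of such genes as a group. They were the mTORC1 inhibitors DDIT4 (log2 fold change 1.88) and SESN2 (1.55), the pseudokinase TRIB3 (1.52), and DRAM1 (0.92), TP53INP1 (0.91) and TP53INP2 (0.47). TP53INP1 lost the call without low glucose replicate 1 (0.0665) and in TPM (0.0507), and TP53INP2 without that library (0.0826), the deepest control library (0.0684) or the unnumbered library (0.14), in TPM (0.125) and without the variance trend (0.11).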

How the data were processed

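The authors sequenced strand-specific RNA-seq libraries, mapped reads to hg38 with STAR 2.7.0e and used DESeq2. RSEM, which estimates counts per gene, is among the software the study lists, without a description of its use or settings; the strand setting and annotation are not given in the sources used here. The deposited unit is a signal: read counts of genes that the authors had scaled by library size factors. Multiplied back, 100% of the values in every library came out whole (within 0.01 of a read), so whole counts were recovered, which are called reads here. Whole values cannot tell counted reads from estimates rounded to whole numbers. Of the identifiers, 99.5% matched Gencode v44.

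The labels name 2 of the 6 columns (low glucose, replicates 1 and 2), and the remaining 4 were assigned to groups from their 2 runs of names. The labels' treatment text gives 2.5 mM for all samples, and control (25 mM) comes from titles and the design text.

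log2(value + 1) of genes with a mean of at least 1 was tested with limma 3.58.1 (lmFit, eBayes with trend; R 4.3.3), two-sided, Benjamini-Hochberg adjusted over all genes tested, threshold 0.05; fold changes understate low genes. The count tests on recovered reads, DESeq2 1.42.0 and edgeR 4.0.16, called 5654 and 6554 genes. Tests were first run on simulated data. TPM used Gencode exon lengths. The named genes were all 44 members, with called genes of the further list. Members and lists were chosen with earlier results of these data known. The alternatives were library size, TMM and quantile scaling, TPM, no filter, a mean of at least 5, a pseudocount of 0.1, no variance trend, both count tests, an absolute log2 fold change threshold of 1, and fits that leave out single libraries; member counts without other-strand partners or without ATG10 were added after seeing the data. Promoter letters came from RefSeq (GRCh38.p14).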

Additional observations from a re-analysis of the deposited data

How the results depend on the processing

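With 3 libraries per group, 12 of the 21 called members passed in the same direction in the 10 alternatives that refit all libraries at the same adjusted p (so not counting the fold threshold) and in all 6 fits without 1 library, and none of the 21 changed sign. The number of genes called was 6528, 4090 without the variance trend, 1392 past a log2 fold change of at least 1, and 4298 to 7173 without 1 library (the lowest without low glucose replicate 1). The split of 3111 higher and 3417 lower was 3932 and 2646 under library size scaling and 1906 and 3298 in TPM. Members called higher were 15, and 5 past a log2 fold change of at least 1, 6 without members that have an other-strand partner, and 13 to 18 without 1 library. Members called lower were 6, and 3 under library size scaling, 2 without the variance trend, 0 past a log2 fold change of at least 1 (which allows none of the 6), and 2 to 7 without 1 library. The cause was not tested.

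Of the uncalled members and regulators, some log2 fold changes near 0 changed sign: under library size scaling ATG14 (0.0059), ATG3 (0.048), ATG4A (0.078), NBR1 (0.015) and TEX264 (0.0030), under TMM scaling and edgeR ATG4A (0.0095 and 0.014), under quantile normalization ATG3 (0.068), NBR1 (0.10), FOXO1 (-0.042) and ZKSCAN3 (-0.16), and in TPM ATG4D (-0.020), ATG5 (-0.032) and ZKSCAN3 (-0.036). Without 1 library the ranges that crossed 0 were -0.041 to 0.13 for RB1CC1, -0.19 to 0.053 for ATG14, -0.078 to 0.053 for ATG3, -0.058 to 0.080 for ATG4A, -0.0078 to 0.088 for ATG4D, -0.012 to 0.10 for ATG5, -0.050 to 0.18 for GABARAPL2, -0.18 to 0.0077 for TEX264 and -0.14 to 0.16 for ZKSCAN3. No paired analysis was possible because replicate numbers are known for 2 of the 6 columns, both of low glucose.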
